A study of Mus musculus with 60 samples.

Results

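The collagen genes are described here as the 44 genes, of 54532 in the deposited count table, whose symbol has the form Col, a number, the letter a and a number. The rule uses the symbol alone and no measured value. RNA of whole tissue was measured in 60 libraries from female C57BL6/J mice aged 6 weeks, with 4 libraries for each of 15 tissues: blood, bone marrow, brain, colon, female reproductive tract, heart, inguinal lymph node, kidney, liver, lung, mesenteric lymph node, skin, small intestine, spleen and thymus. All mice were perfused through the heart with saline that contained EDTA, no mouse was treated, and the comparisons are therefore between tissues. Blood is labelled as mononuclear cells in the titles and as whole blood in the source field, so it is called blood. The labels do not say which libraries came from the same mouse, and the p-values measure the spread between these libraries.

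Collagens are proteins of the extracellular matrix in which 3 chains wind into a triple helix. Each helical stretch is a run of triplets that begin with glycine, the smallest amino acid, which alone has room at the centre of the helix. Fibrillar collagens have a long unbroken helix and pack side by side into fibrils, which give skin, bone, tendon and organ capsules their tensile strength. Type IV collagens have a helix with many interruptions and join into the sheet-like network of basement membranes, under epithelia, around vessels and around muscle and fat cells, where types XV and XVIII also lie. The other collagens form beaded filaments (type VI), anchoring fibrils (type VII) or hexagonal nets (types VIII and X), sit on the surface of fibrils (types IX, XII, XIV and their relatives), or span the cell membrane (types XIII, XVII, XXIII and XXV). By these roles 11 of the 44 genes were fibrillar, 8 belonged to basement membranes and 25 were others.

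The difference between the continuous and the interrupted helix can be read in the coding sequence. A script counted, in 1 GENCODE transcript per gene on build GRCm38, the longest run of codon triplets that each begin with GGN, the 4 codons of glycine. The longest run was between 216 and 344 triplets in the 11 fibrillar genes (median 338), between 30 and 66 in the 8 basement membrane genes (median 41) and between 23 and 113 in the 25 others (median 52). The 2 stretches below show this for a fibrillar chain and a basement membrane chain, with the glycine codons of the triplets in capitals. They are codons 97 to 132 of Col1a2 (chromosome 6, plus strand) and codons 145 to 180 of Col4a1 (chromosome 8, minus strand).
Col1a2: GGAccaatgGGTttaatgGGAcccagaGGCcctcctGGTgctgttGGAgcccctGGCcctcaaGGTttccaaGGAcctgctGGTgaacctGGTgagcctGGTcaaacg
Col4a1: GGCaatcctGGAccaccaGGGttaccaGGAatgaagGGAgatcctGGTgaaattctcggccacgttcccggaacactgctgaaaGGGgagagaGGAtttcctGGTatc
The Col1a2 stretch keeps the capital codon in each of its triplets. The Col4a1 stretch has a gap of lower case codons within it, an interruption of the type IV helix.

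The start regions of 4 genes are printed because their levels, given below, either ran in parallel or stood out in 1 tissue. They come from RefSeq (GRCm38.p6) and run from 250 bases before to 50 bases after the annotated start, 5′ to 3′ on the strand of the gene. Capitals mark 3 motifs searched on both strands. The first, TATAAA, is the TATA box of general initiation factors. The second, CCAAT, is a box bound by the factor NF-Y. The third, GGGCGG, is the GC box bound by Sp1. Of the 44 collagen genes, 35 matched this table, with 38 start regions. Col4a1 and Col4a2 lie head to head and encode the 2 chains of the common type IV trimer. Their annotated starts are 21 bases apart on opposite strands, so the windows chr8:11312777-11313076 (minus strand) and chr8:11312555-11312854 (plus strand) share 78 bases.
Col4a1: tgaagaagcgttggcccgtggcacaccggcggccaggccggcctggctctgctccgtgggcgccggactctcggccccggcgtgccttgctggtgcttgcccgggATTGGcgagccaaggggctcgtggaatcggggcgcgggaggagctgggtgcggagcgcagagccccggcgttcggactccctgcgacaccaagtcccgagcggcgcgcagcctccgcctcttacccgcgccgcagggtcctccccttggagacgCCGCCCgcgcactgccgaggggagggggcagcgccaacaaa
Col4a2: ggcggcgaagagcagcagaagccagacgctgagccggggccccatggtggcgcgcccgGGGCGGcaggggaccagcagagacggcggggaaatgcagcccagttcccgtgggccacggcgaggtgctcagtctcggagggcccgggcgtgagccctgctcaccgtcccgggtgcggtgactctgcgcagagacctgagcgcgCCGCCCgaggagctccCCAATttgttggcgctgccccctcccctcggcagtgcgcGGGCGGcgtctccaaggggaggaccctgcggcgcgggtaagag
Col17a1, which was high in skin, has the window chr19:47691993-47692292 (minus strand), with 2 TATA boxes that begin 140 and 91 bases before the start.
Col17a1: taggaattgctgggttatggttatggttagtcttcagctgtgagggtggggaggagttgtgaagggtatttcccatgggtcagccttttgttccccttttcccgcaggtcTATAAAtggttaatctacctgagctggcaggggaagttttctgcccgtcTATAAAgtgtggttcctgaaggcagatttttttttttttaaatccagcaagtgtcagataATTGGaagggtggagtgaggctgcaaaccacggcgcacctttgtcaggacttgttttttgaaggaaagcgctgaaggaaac
Col18a1, which was high in liver, has 2 annotated starts, chr10:77113656-77113955 and chr10:77166481-77166780 (both minus strand). The first window holds none of the motifs and the second holds 3 GC boxes and 1 CCAAT box. Reads came from the 3′ ends of transcripts, so they do not tell which start was used.
Col18a1, first window: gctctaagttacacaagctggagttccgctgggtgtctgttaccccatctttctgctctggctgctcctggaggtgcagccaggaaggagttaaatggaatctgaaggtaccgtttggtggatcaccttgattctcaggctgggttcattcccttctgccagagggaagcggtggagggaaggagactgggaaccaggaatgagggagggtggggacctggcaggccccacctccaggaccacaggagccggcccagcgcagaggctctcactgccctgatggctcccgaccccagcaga
Col18a1, second window: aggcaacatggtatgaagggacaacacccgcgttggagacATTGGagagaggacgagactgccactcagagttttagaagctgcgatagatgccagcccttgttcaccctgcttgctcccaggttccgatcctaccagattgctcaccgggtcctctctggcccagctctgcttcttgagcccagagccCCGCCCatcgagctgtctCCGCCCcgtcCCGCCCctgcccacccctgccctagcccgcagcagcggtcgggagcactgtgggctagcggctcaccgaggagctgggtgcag
A TATA box stood in 13.2% of the 38 collagen start regions and in 13.6% of all 32851 start regions of the table. For the CCAAT box the shares were 34.2% and 37.4%, and for the GC box 60.5% and 35.7%. A match is a description of the letters and not evidence of a binding site. Starts also lay head to head for Col4a3 and Col4a4, 72 bases apart, and for Col4a5 and Col4a6, 1309 bases apart.

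The depth of a library, its total count, lay between 353605 and 5211133 with a median of 2649668, and collagen genes took between 0.00695% of counts in blood and 1.02% in the female reproductive tract (means of 4 libraries). Levels are CPM, counts scaled to the same library total in every library, with TMM, a factor that evens out differences in composition. Reads were primed at the poly(A) tail, so CPM was not divided by transcript length, and levels of different genes also reflect how well each 3′ end was captured. In whole tissue, fewer cells of a type and less RNA per cell cannot be told apart. The libraries of the female reproductive tract differed from each other. Replicate 3 was the shallowest of the series (353605 counts, 1.83% of them from collagens), and keratinocyte markers summed to 1768, 797, 1045 and 33.2 CPM in replicates 1 to 4. Collagen results for this tissue are therefore also given for replicates 1 and 2, or without 5 libraries. They were its replicates 3 and 4, colon replicate 2, brain replicate 3 and liver replicate 4, which stood apart in genes other than collagens. Library totals of colon and lung were low, from 750212 to 951914 in colon and from 904970 to 1202994 in lung.

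To ask where each collagen gene was high or low, each tissue was set against the mean of the other 14, each with the same weight, on the log scale. A gene was called higher or lower at a Benjamini-Hochberg adjusted p below 0.05 in edgeR's quasi-likelihood test and an absolute log2 fold change above 1. Of the 44 collagen genes 38 were among the 18562 genes tested, and Col2a1, Col9a1, Col10a1, Col22a1, Col24a1 and Col28a1 had too few reads. The filter keeps a gene for its level in any 1 tissue, so the counts describe the tested members and the share of all tested genes called is given beside each. Of the 38, 10 had no read in at least 1 tissue: Col4a5, Col6a4, Col6a5, Col6a6, Col9a2, Col11a1, Col17a1, Col19a1, Col25a1 and Col26a1. A mean on the log scale that holds such a tissue has no lower bound, so that in these 10 genes higher calls are easier to reach and lower calls harder, as among all genes. Counts over the other 28 members, and counts by limma with a prior count of 2, chosen after seeing the data, are therefore given too.

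Tissues with many collagen genes higher are given first. The female reproductive tract had 30 of 38 collagen genes higher, where 23.1% of all tested genes were higher, and 1 lower, Col11a2, where 5.31% of all tested genes were lower. Skin had 20 higher (18.4% of all genes) and by edgeR again Col11a2 lower (6.38% of all genes). Lung had 20 higher (16.8% of all genes) and none lower, against 12.3% of all genes. In that tissue edgeR gave 0 lower members at an unadjusted p below 0.05 as well, and DESeq2 called 0, but limma called 2, Col6a4 and Col6a6. Colon had 20 higher (17.7% of all genes) and 2 lower (14.4% of all genes). The median log2 fold change of the tested collagens was 2.77 in the female reproductive tract, 1.60 in skin, 1.46 in colon and 1.34 in lung, beside medians over all tested genes of 0.08, -0.04, -0.15 and -0.23 in the same order of tissues. Without the 5 libraries named above, the female reproductive tract had 29 higher, Col20a1 no longer being called, and colon had 19 higher. Over the 28 members with reads in every tissue, 22 were higher in the female reproductive tract, 16 in skin, 18 in lung and 16 in colon, and limma called 27, 18, 18 and 15 of the 38 in the same order.

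In the middle of the order heart had 14 collagen genes higher (20.7% of all genes) and 5 lower (12.9%). Kidney had 12 higher (21.8% of all genes) and 4 lower (9.52%). The mesenteric lymph node had 11 higher (17.2% of all genes) and 5 lower (4.58%), and the inguinal lymph node had 10 higher (17.1%) and 5 lower (6.70%). The small intestine had 10 higher (19.9% of all genes) and 2 lower (8.50%), and spleen had 7 higher (17.8%) and 8 lower (9.16%). Brain had 10 higher (27.7% of all genes) and 14 lower (16.1%), so that its share of higher members was close to that of all genes. The medians of the tested collagens in these 7 tissues ran from -0.68 in brain to 0.61 in the mesenteric lymph node. Heart's split depended on the scaling. With library totals in place of TMM, 6 were higher and 12 lower, and the signs of its Col1a1 and Col6a3 turned. The median over all tested genes moved to -1.38, against -0.12 with TMM. Of all 18562 tested genes, 1499 were then higher in heart and 8430 lower. With library totals the inguinal lymph node had 16 higher and 2 lower, the mesenteric lymph node 19 and 4, kidney 11 and 7, and spleen 7 and 5. Medians over all tested genes moved as well, to 0.42, 0.38, -0.40 and 0.35 in the same order of tissues. With TMM they were 0.05, 0.02, 0.03 and -0.03. Of all 18562 tested genes 4835, 4625, 2902 and 4865 were higher with library totals, and 716, 510, 2920 and 981 lower. The members higher over the 28 with reads in every tissue were 12 in heart, 9 in kidney, 7 in the mesenteric and 4 in the inguinal lymph node, 8 in the small intestine, 4 in spleen and 5 in brain. By limma the inguinal node had 4 of 38 higher, the mesenteric node 7 and spleen 4, and heart had 8 lower.

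Few collagen genes were higher in liver, thymus, bone marrow and blood. Liver had 4 collagen genes higher (18.4% of all genes) and 11 lower (16.7%). With library totals it had 2 higher and 22 lower, where 1811 of all 18562 tested genes were higher and 7497 lower. The median over all tested genes moved to -1.23, against -0.25 with TMM. Thymus had 5 higher (18.9% of all genes) and 18 lower (12.1%). Bone marrow had 3 higher (17.6% of all genes) and 18 lower (16.1%), and blood had 2 higher (18.1%) and 22 lower (17.8%). The medians were -1.16 in liver, -1.17 in thymus, -2.44 in bone marrow and -3.43 in blood. Blood had 1 CPM or more for 13 of the 44 members and no read of 7, whereas the female reproductive tract had 1 CPM or more for 40 and no read of 1. By limma thymus had 1 higher and blood 1, and liver had 17 lower.

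**Figure D1:**
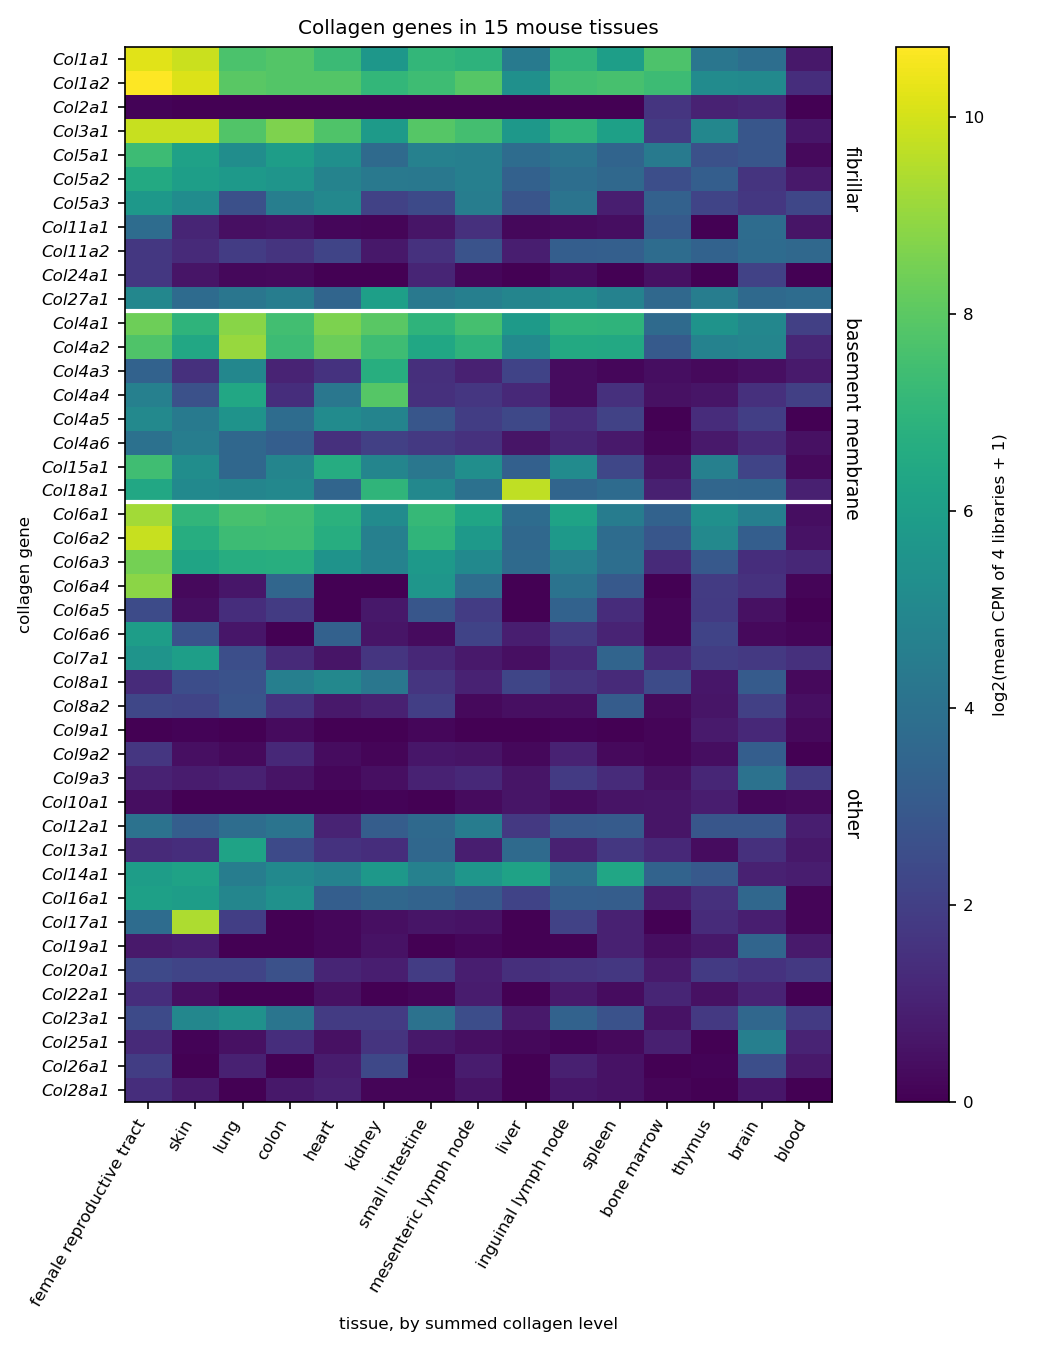
Mean level of the 44 collagen genes (rows, grouped by class) in 15 tissues (columns, ordered by summed collagen level), as log2 of the mean CPM of 4 libraries plus 1. The rows of Col1a1, Col1a2 and Col3a1 are brightest in the female reproductive tract and skin, and Col4a3 and Col4a4 stand out in kidney and lung, Col17a1 in skin and Col18a1 in liver. Brighter colours are higher levels.

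Summed over the class, fibrillar collagens reached 4147 ± 1954 CPM in the female reproductive tract (SD, n = 4) and 3123 ± 688 CPM in skin. On replicates 1 and 2 alone the female reproductive tract had 3046 CPM, below the mean of skin. All other tissues had a mean of 1008 CPM (colon) or less, down to 32.3 ± 9.16 CPM in blood. Basement membrane collagens had another order of tissues. They were highest in lung, with 1190 ± 157 CPM, followed by kidney (941 ± 20.1 CPM), liver (925 ± 50.5 CPM), the female reproductive tract (877 ± 231 CPM) and heart (866 ± 89.8 CPM), while skin had 329 CPM. The ranges of these 5 tissues overlapped, except that every lung library was above every kidney library. This order did not hold with library totals, where lung had 1506 CPM, the female reproductive tract 1165 CPM, kidney 707 CPM, liver 466 CPM and heart 358 CPM. The other collagens reached 2609 ± 1754 CPM in the female reproductive tract, where replicate 3 alone had 5208 CPM, and 1242 CPM in skin.

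The fibrillar sum was larger than the basement membrane sum in 11 of 15 tissues, and smaller in heart, lung, kidney and liver. The ratio of fibrillar to basement membrane collagens, taken per library, was highest in bone marrow (21.9 ± 10.2) and skin (9.45 ± 1.63), followed by the female reproductive tract (4.58 ± 0.948). It was 0.818 ± 0.0551 in heart, 0.673 ± 0.102 in lung, 0.364 ± 0.0681 in kidney and 0.184 ± 0.05002 in liver. Liver's low ratio rested on 1 gene: Col18a1 made up 88.3% of its basement membrane sum, and its type IV chains together had only 99.7 ± 12.9 CPM, or 10.8%. With type IV chains alone the fibrillar sum was larger in 12 tissues, liver among them. In the 14 other tissues Col18a1 made up between 1.19% (heart) and 13.7% (kidney) of that sum.

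**Figure D2:**
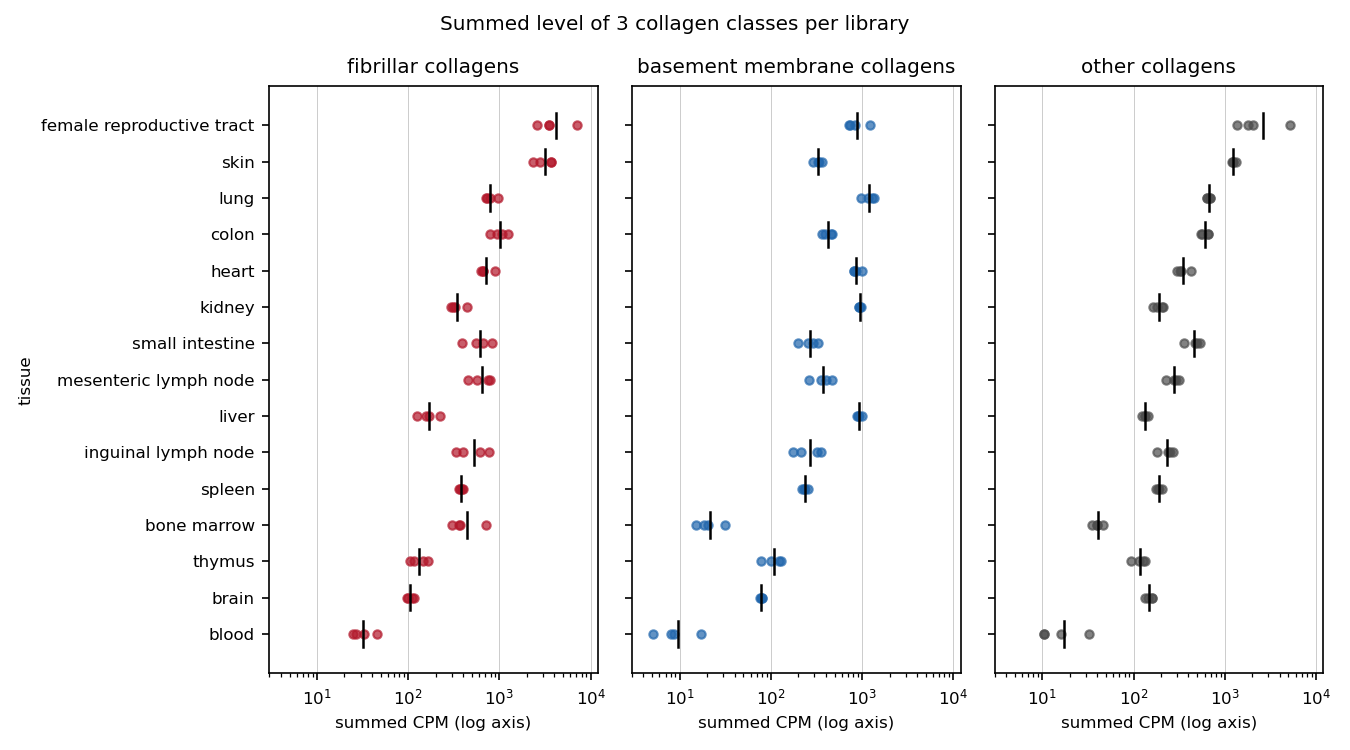
Summed CPM of fibrillar, basement membrane and other collagens (log axis) in each of the 60 libraries, with 1 point per library and a bar at the mean of 4, tissues ordered by total collagen level. Fibrillar sums are highest in the female reproductive tract and skin (means of 4147 and 3123 CPM, with replicates 1 and 2 of the female reproductive tract at 3046 CPM), and basement membrane sums in lung, kidney and liver (means of 1190, 941 and 925 CPM).

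Among fibrillar collagens, Col1a1 and Col1a2 encode the chains of type I collagen, the main fibril of skin and bone, and Col3a1 encodes type III, the fine fibre of pliable organs. Col1a2 was the most abundant collagen RNA of skin, with 1008, 862, 1342 and 1263 CPM in its 4 libraries, and of the female reproductive tract, with 1328, 1088, 2602 and 1697 CPM. These ranges overlapped, and no library of another tissue was above 289 CPM. Col1a1 had 770, 742, 1121 and 1056 CPM in skin (log2 fold change 3.78 ± 0.16 SE) and 1037, 554, 2515 and 715 CPM in the female reproductive tract (4.17 ± 0.16). Col3a1 averaged 897 ± 253 CPM in skin (3.93 ± 0.16) and 910 ± 228 CPM in the female reproductive tract (3.94 ± 0.16). On replicates 1 and 2 alone the female reproductive tract averaged 795 CPM of Col1a1, 1208 CPM of Col1a2 and 807 CPM of Col3a1, which is 0.863, 1.08 and 0.900 times the level of skin.

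Colon came next for Col3a1, with 397 ± 84.5 CPM and a log2 fold change of 2.67 ± 0.19. Col3a1 was also the leading collagen of colon and of the small intestine (238 ± 81.1 CPM). Col1a2 led in 6 tissues, namely skin, the female reproductive tract, both lymph nodes, spleen and brain. Bone marrow was led by Col1a1.

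Bone marrow had a fibrillar pattern of its own. Col1a1 stood at 208 ± 105 CPM and was called higher (log2 fold change 1.48 ± 0.20), and Col1a2 at 160 ± 74.0 CPM, but Col3a1 at only 2.66 CPM was called lower (-5.04 ± 0.52). In every other tissue except blood Col3a1 was at 6.40 CPM or more. Col11a1, a chain of the minor fibrillar type XI of cartilage, had 4.54, 12.95, 7.48 and 3.81 CPM in bone marrow, and Col11a2, its partner chain, had 9.48, 17.3, 10.8 and 13.1 CPM (1.91 ± 0.23). Col11a1 had higher means in the female reproductive tract (12.8 CPM) and brain (12.7 CPM). Col11a2 had means close to that of bone marrow in brain (12.3 CPM) and blood (11.2 CPM). Col2a1, the main collagen of cartilage, had its highest mean in bone marrow, at 2.17 ± 1.83 CPM, too low to be tested. Bone and cartilage markers summed to between 36.7 and 73.2 CPM in bone marrow, led by Ibsp (45.4 CPM) and Bglap (9.03 CPM), with Comp, Matn3 and Sox9 at 0. Of the 4 genes of that list tested 2 were higher and 1 lower. The whole list of 10 genes summed higher in colon (78.5 CPM), brain (70.01 CPM), small intestine (69.0 CPM) and skin (67.1 CPM) than in bone marrow (59.4 CPM), with Ibsp at 0 in colon and skin. The part of bone cells in these values was not tested.

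Type V collagen, which starts fibrils and limits their width, followed the abundant chains. Col5a1 was called higher in the female reproductive tract (163 ± 150 CPM, 386 of them in replicate 3), skin (69.8 ± 13.9 CPM), colon, heart and lung. Col5a2 was called higher in the same tissues except heart. Col5a3 reached 52.2 ± 21.2 CPM in the female reproductive tract, 36.4 ± 11.5 CPM in skin and 30.8 ± 8.42 CPM in heart, and was lowest in spleen (0.887 CPM), where the other type V chains stood at 10.0 and 11.4 CPM. Col11a2 differed from the rest of the class. It was called higher in 6 tissues, namely bone marrow, brain (12.3 ± 2.47 CPM), blood (11.2 ± 3.45 CPM), thymus, spleen and the inguinal lymph node, and it was the 1 collagen that edgeR called lower in skin and in the female reproductive tract. Neither call was firm, as the fold in the female reproductive tract was -0.97 by limma and the call in skin was lost without replicate 2. In blood it was the second most abundant collagen RNA, after Col27a1 (12.997 ± 0.839 CPM). Col27a1, a fibrillar collagen of growing cartilage, was found at 10.4 CPM or more in all 15 tissues and was highest in kidney, with 56.9, 65.8, 79.2 and 56.9 CPM, each above every library of the other tissues (1.78 ± 0.13).

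The basement membrane chains Col4a1 and Col4a2, found in nearly all basement membranes, ran in parallel over the 15 tissues (Spearman's rho of the tissue means 0.979). The value is a description, as both genes were measured in the same libraries. Lung was highest for both. Col4a2 had 465, 497, 588 and 577 CPM there, above every other library of the series (log2 fold change 3.28 ± 0.10), and Col4a1 had 347, 427, 491 and 533 CPM (2.47 ± 0.12), which overlapped heart. Heart had 385 ± 31.1 CPM of Col4a1 (2.23 ± 0.12) and 317 ± 46.3 CPM of Col4a2 (2.48 ± 0.11). The endothelial markers summed to 1460 CPM in lung and 674 CPM in heart, more than in any other tissue, and their part in these values was not tested. Both chains were lowest in blood, at 3.10 and 1.25 CPM. The 3′ end of Col4a1 overlaps the antisense gene Gm15418, and the strand setting of the counting was not given in the sources used here.

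Col4a3, Col4a4 and Col4a5 form the second type IV network, known from the filtration barrier of the kidney glomerulus and from lung alveoli. Kidney had 102, 107, 107 and 99.9 CPM of Col4a3 (chromosome 1, 82586921 to 82722059, plus strand), against 0.154 to 29.9 CPM as means of the other tissues, a log2 fold change of 6.49 ± 0.15. It had 254, 228, 222 and 241 CPM of Col4a4 (chromosome 1, 82448423 to 82586849, minus strand), against 0.290 to 84.9 CPM in the others, a change of 6.38 ± 0.11. All 4 kidney libraries were above every other library for both genes. Lung came next for both, with 20.3, 27.9, 25.8 and 45.6 CPM of Col4a3 (4.57 ± 0.23) and 73.9, 93.2, 82.8 and 89.8 CPM of Col4a4 (4.79 ± 0.15). Col4a5 had another order, with 44.4 ± 13.4 CPM in lung, 34.5 ± 4.37 CPM in heart, 31.6 ± 9.92 CPM in the female reproductive tract and 27.4 ± 2.35 CPM in kidney. Every kidney library lay below those of lung and heart, and the female reproductive tract overlapped all of these. It had no read in blood or bone marrow, so that its fitted fold changes depend on the prior count and are not given. The 3′ end of Col4a3 overlaps C430014B12Rik on the other strand.

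Lung's alveolar type I markers summed to between 3083 and 3326 CPM. The part of these cells in the values was not tested. Heart was higher in Col4a4 as well (17.9 ± 5.26 CPM, 2.39 ± 0.20), with Col4a3 at 1.96 CPM.

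Col4a6, which joins Col4a5 in the third network under the epidermis and around smooth muscle, was highest in skin with 23.4, 30.99, 19.4 and 16.1 CPM (3.77 ± 0.22), followed by the female reproductive tract (15.2 ± 2.23 CPM), lung (10.9 ± 2.53 CPM) and colon (8.13 ± 3.05 CPM), each called higher. The lowest skin library lay within the range of the female reproductive tract. Col15a1, which bridges basement membrane and fibrils around muscle and capillaries, was highest in the female reproductive tract (171 ± 64.3 CPM) and heart (98.4 ± 13.8 CPM, 3.11 ± 0.16), and was called higher in the mesenteric (38.2 CPM, 1.65 ± 0.18) and inguinal (34.6 CPM, 1.49 ± 0.17) lymph nodes, skin, kidney and colon too. The kidney call was lost without replicate 3 (0.96), and those of kidney (0.92) and colon (0.93) by limma. It was called lower in bone marrow, blood, brain and spleen (3.81 CPM, -1.87 ± 0.35).

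Col18a1 encodes type XVIII, which carries heparan sulphate and releases endostatin from its end. Liver had 874, 815, 792 and 786 CPM, against 132, 139, 124 and 120 CPM in kidney, the next tissue, and its log2 fold change over the 14 other tissues was 5.78 ± 0.09. It was 66.5% of the summed collagen CPM of liver. In no other tissue did 1 gene reach such a share, the next being Col1a1 with 41.6% in bone marrow. The gene lies on chromosome 10, 77052178 to 77166548, on the minus strand, and its 3′ end overlaps Slc19a1 on the other strand. Liver was at the same time lower in Col1a1 (19.8 CPM, -2.15 ± 0.33) and Col1a2 (41.1 CPM, -1.77 ± 0.22).

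**Figure D3:**
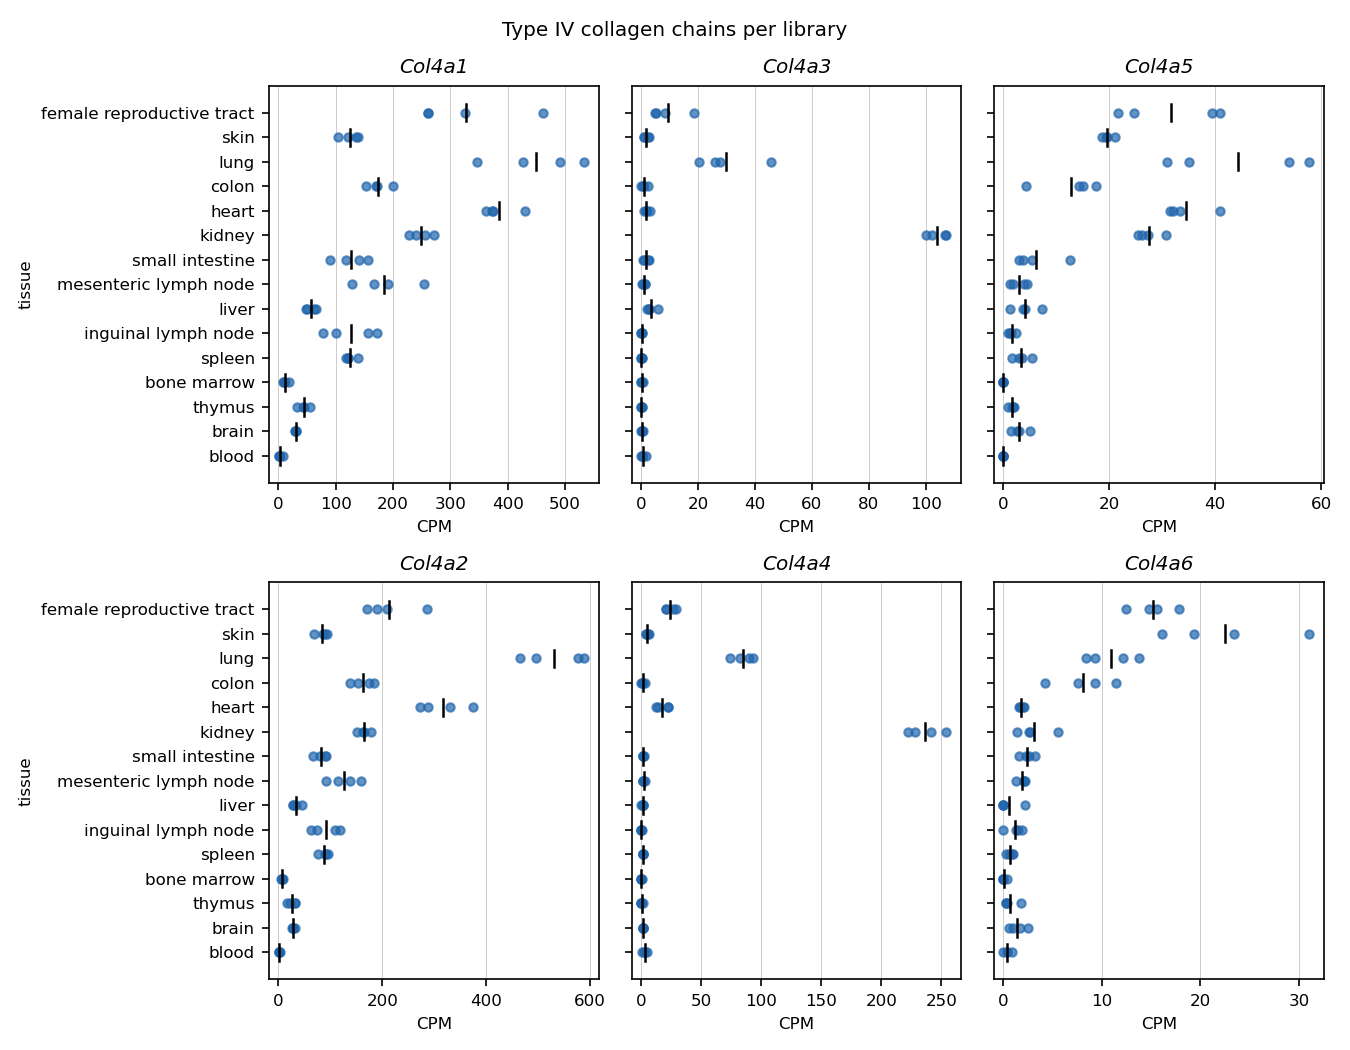
CPM of the 6 type IV collagen chains in each of 60 libraries by tissue, with a bar at the mean of 4 libraries and partner chains above each other. Col4a1 and Col4a2 are high in lung and heart, Col4a3 and Col4a4 in kidney (means of 104 and 236 CPM) and then lung, and Col4a6 in skin (22.5 CPM).

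Type VI collagen forms beaded filaments next to cells. Col6a1, Col6a2 and Col6a3, the chains of the common trimer, ran in parallel over tissues (Spearman's rho 0.982 for Col6a1 and Col6a2, and 0.961 for Col6a2 and Col6a3, as descriptions over 15 means). Col6a1 had 581, 425, 916 and 442 CPM in the female reproductive tract (log2 fold change 3.96 ± 0.11), all above every other library, with lung next at 195 ± 12.8 CPM. Col6a2 had 526, 355, 2249 and 504 CPM there (4.94 ± 0.16), with colon next at 169 ± 21.8 CPM. Col6a3 had 171, 100, 922 and 237 CPM. Replicate 3 was the highest library for all 3 genes. On replicates 1 and 2 alone Col6a2 averaged 440 CPM, 2.61 times colon, and Col6a1 503 CPM, 2.58 times lung. The Col6a1, Col6a2 and Col6a3 genes were also called higher in colon, lung, heart, small intestine and skin and lower in bone marrow, blood and brain, except for Col6a1 in brain. Bone marrow had 9.32, 6.38 and 1.44 CPM and blood 0.324, 0.435 and 1.28 CPM of the 3 genes.

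Col6a4, Col6a5 and Col6a6 encode alternative partners of Col6a1 and Col6a2 in place of Col6a3. Col6a4 had 308, 319, 598 and 607 CPM in the female reproductive tract, against 40.2, 49.7, 52.2 and 51.05 CPM in the small intestine, the next tissue, with replicates 1 and 2 alone at 6.49 times the small intestine. It averaged 15.8 CPM in the inguinal and 13.1 CPM in the mesenteric lymph node, 10.6 CPM in colon and 6.88 CPM in spleen, and was called higher in each, though in spleen not by limma (0.95). Heart, bone marrow, kidney and liver had no read of it and skin had 2 reads in all, so no fold over the other tissues is given. Col6a6 had 42.2, 33.3, 127 and 46.8 CPM in the female reproductive tract, with heart next at 9.07 ± 1.68 CPM and skin at 5.53 ± 1.21 CPM. Col6a5 was highest in the inguinal lymph node, with 11.5, 11.01, 12.2 and 2.64 CPM, where the last library fell below the small intestine (6.25 ± 2.80 CPM).

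Col17a1 encodes the transmembrane collagen of hemidesmosomes, which fasten basal keratinocytes to the basement membrane, and Col7a1 the anchoring fibrils below it. Skin had 648, 713, 664 and 691 CPM of Col17a1 (chromosome 19, 47646344 to 47692094, minus strand), against 23.5, 13.04, 12.5 and 1.70 CPM in the female reproductive tract, the next tissue, a ratio of means of 53.6. No other tissue averaged more than 3.27 CPM, and bone marrow, colon and liver had no read. It was the fourth most abundant collagen RNA of skin, after the type I and III chains. Col7a1 had 63.3, 66.7, 52.7 and 68.5 CPM in skin (4.91 ± 0.21) and 19.9, 13.04, 120 and 27.2 CPM in the female reproductive tract, where 1 library was above skin and 3 were below. On replicates 1 and 2 alone the female reproductive tract averaged 16.5 CPM, 0.262 times skin. Spleen came next, with Col7a1 at 9.86 ± 1.52 CPM (2.06 ± 0.29). Keratinocyte markers summed to between 15181 and 17027 CPM in skin and to 14.3 CPM in lung.

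Among the other membrane collagens, Col13a1, a collagen of cell adhesion sites, had 70.7, 90.5, 63.6 and 67.7 CPM in lung, above all other libraries (5.29 ± 0.20). Liver (12.1 ± 4.78 CPM, 2.52 ± 0.31) and the small intestine (10.9 ± 2.12 CPM, 2.37 ± 0.28) followed and were called higher too. Col23a1 was highest in lung, with 54.4, 48.8, 35.1 and 30.4 CPM (3.20 ± 0.19), and skin (30.1 ± 2.73 CPM, 2.68 ± 0.18), which overlapped. Col25a1, a neuronal membrane collagen found in amyloid plaques, had 22.95, 24.2, 23.3 and 24.3 CPM in brain, against 4.26 CPM in the highest library of any other tissue.

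Brain was low in fibrillar and common basement membrane chains, with Col1a1 at 13.8 CPM (-2.71 ± 0.34), Col3a1 at 6.40 CPM (-3.71 ± 0.41) and Col4a1 at 29.8 ± 0.744 CPM (-1.72 ± 0.18), while 8 of 21 tested collagens of neither class were higher. In all 10 of 38 members were higher there, no larger a share than among all genes. Of the 28 members with reads in every tissue 5 were higher. Of the other 10, where higher calls are easier to reach, 5 were higher in brain. Col19a1, a small collagen known from subsets of neurons, had 14.8, 7.40, 13.2 and 5.59 CPM there, against 0.983 CPM in spleen, the next tissue. Col9a3 and Col9a2, chains of the type IX that decorates cartilage fibrils, had 15.6 ± 1.23 CPM (4.24 ± 0.28) and 8.30 ± 1.39 CPM, while the third chain, Col9a1, had 1.33 ± 1.24 CPM and was not tested. The 3′ end of Col9a3 overlaps Tcfl5 on the other strand. Col11a1 had 11.5, 12.5, 14.8 and 11.8 CPM in brain and overlapped the female reproductive tract, with 20.6, 10.7, 16.6 and 3.40 CPM. Col26a1, a collagen first found in testis and ovary, stood at 5.001 ± 1.77 CPM in brain and 4.05 ± 0.787 CPM in kidney. In brain 4 of 7 fibroblast markers and 4 of 6 endothelial markers were lower, and their part in these values was not tested.

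The fibril-associated collagens other than type IX each had their own order of tissues. Col14a1, found on type I fibrils, was highest in spleen with 78.3, 75.1, 72.9 and 93.5 CPM (2.21 ± 0.14), liver (70.8 ± 7.98 CPM, 2.02 ± 0.17) and skin (70.7 ± 26.5 CPM, 2.02 ± 0.15), which overlapped, and was at 0.965 CPM in brain. Col12a1, of the same kind, was highest in the mesenteric lymph node with 23.7, 22.9, 24.8 and 15.1 CPM (2.16 ± 0.22), overlapping colon (16.5 ± 3.63 CPM) and the female reproductive tract (15.6 ± 5.17 CPM). Col16a1 was called higher in the female reproductive tract (66.3 ± 24.9 CPM), skin (61.2 ± 2.01 CPM), colon (42.2 ± 4.21 CPM) and lung (29.5 ± 3.44 CPM), and in no other tissue. Col20a1 did not pass 5.29 CPM in any tissue mean.

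Col8a1 and Col8a2 encode the hexagonal net of type VIII, known from vessel walls and the cornea, and their levels were not parallel (Spearman's rho 0.2 over 15 means, as a description). Col8a1 had 26.8, 26.7, 44.8 and 27.04 CPM in heart (3.43 ± 0.25), 23.8 ± 4.06 CPM in colon (3.01 ± 0.31) and 17.98 ± 4.29 CPM in kidney (2.57 ± 0.26). Col8a2 had 7.12, 8.59, 7.70 and 7.77 CPM in spleen (2.85 ± 0.31) and 5.98 ± 2.15 CPM in lung (2.47 ± 0.44). Spleen was called lower in Col8a1 (1.39 CPM, -1.33 ± 0.48). That call was lost without replicate 2, where 1 tissue was left with no read of Col8a1. Among the untested members Col24a1, a fibrillar collagen of bone, reached 3.27 ± 1.01 CPM in brain, Col22a1 and Col28a1 each 1.61 CPM in the female reproductive tract, and Col10a1, of growth plate cartilage, stayed below 1 CPM in all 15 tissues. The 3′ end of Col10a1 overlaps Nt5dc1 on the other strand.

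In all, 16 of the 44 genes had their highest mean in the female reproductive tract, 7 in brain and 5 in lung. With replicates 1 and 2 alone for the female reproductive tract it was 10 genes there and 7 in skin, as Col1a1, Col3a1, Col5a3, Col16a1, Col22a1 and Col28a1 were then higher elsewhere. For 15 genes all 4 libraries of the top tissue were above every other library. For 9 genes the top tissue was called higher, had at least 5 CPM and had at least 4 times the next tissue: Col6a2, Col6a4 and Col6a6 in the female reproductive tract, Col9a3, Col19a1 and Col25a1 in brain, Col13a1 in lung, Col17a1 in skin and Col18a1 in liver. The ratio to the next tissue ran from 5.39 for Col6a2 to 53.6 for Col17a1. Col6a2 fell below 4 times on replicates 1 and 2 of the female reproductive tract. Only 5 of the 44 genes had 1 CPM or more in all 15 tissues.

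**Figure D4:**
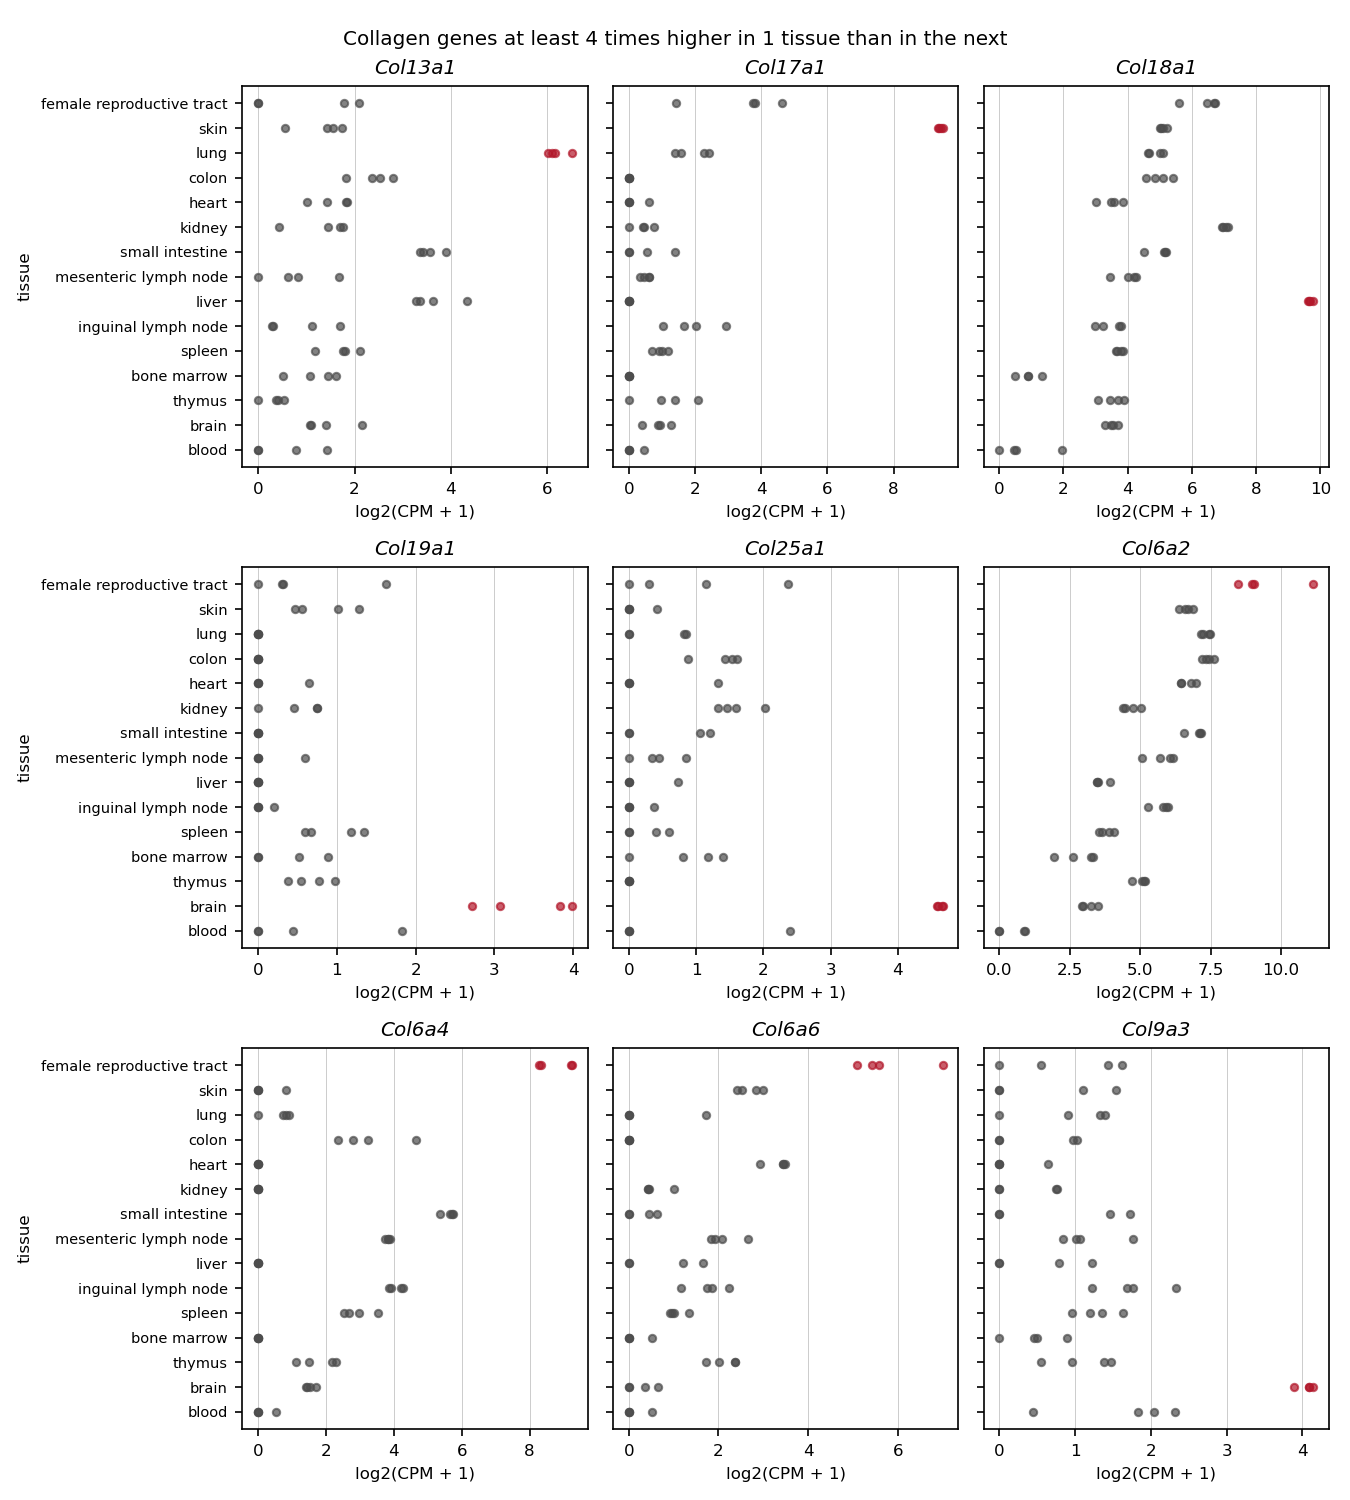
Level of 9 collagen genes in each library by tissue, as log2 of CPM plus 1, with the libraries of the highest tissue in red and all others in grey. The red points lie right of all grey ones in each panel, by the widest gap for Col17a1 in skin (679 CPM, against 12.7 CPM in the next tissue).

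Skin was set directly against the female reproductive tract, the other tissue rich in fibrillar collagen, in a fit of their 8 libraries. Of the 27 collagen genes tested 2 were higher in skin (14.6% of all 12733 tested genes) and 12 were lower (14% of all genes). The higher members were Col17a1 (log2 fold change 5.52 ± 0.48) and Col23a1 (30.1 against 4.28 CPM, 2.48 ± 0.33). Lower in skin were all 5 tested type VI chains, namely Col6a4 (2 reads in skin in all, against 458 CPM), Col6a6 (-3.44 ± 0.44), Col6a2 (-3.30 ± 0.56), Col6a3 (-2.34 ± 0.61) and Col6a1 (-2.26 ± 0.29), together with Col15a1, Col18a1, Col27a1 and Col4a1 to Col4a4. The type I and III chains did not pass the test (Col1a1 -0.50 ± 0.43, Col1a2 -0.70 ± 0.31, Col3a1 -0.13 ± 0.28). Without replicates 3 and 4 of the female reproductive tract, 4 of 32 were higher in skin, Col7a1 (1.86) among them, and 14 were lower. Col6a3 was no longer called (-0.91). This fit tested more members, so the shares of all genes given above do not apply to it. Keratinocyte markers were higher in skin for 5 of 6 genes and smooth muscle markers lower for 5 of 6 (means of 606 CPM summed in skin and 3218 CPM in the female reproductive tract), and their part in these values was not tested.

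Colon was set against the small intestine. Of 22 collagen genes tested 7 were higher in colon (12.2% of all 10773 tested genes) and 2 lower (13.5% of all genes). Col8a1 had 21.2, 19.6, 26.9 and 27.7 CPM in colon, against 2.14 CPM as the mean of the small intestine (3.53 ± 0.33). Col5a3 (22.8 against 4.31 CPM, 2.52 ± 0.29), Col16a1 (42.2 against 9.54 CPM, 2.26 ± 0.22) and Col5a2 (47.1 against 18.5 CPM, 1.45 ± 0.22) were higher in colon too, as were Col5a1, Col4a2 and Col6a3. The Col6a3 call was lost without colon replicate 3 (0.86) and small intestine replicate 1 (0.82) or 4 (0.97), and the Col4a2 call without small intestine replicate 1 (0.99). All 3 type V chains were thus higher, while Col1a1 (0.88 ± 0.20) and Col3a1 (0.86 ± 0.21) stayed under the fold threshold. Col6a4 (10.6 against 48.3 CPM, -2.06 ± 0.31) and Col13a1 (4.34 against 10.9 CPM, -1.19 ± 0.34) were lower in colon. Smooth muscle markers summed to 6684 CPM in colon and 1768 CPM in the small intestine, with all 6 called higher. Adipocyte markers summed to 419 and 90.3 CPM, with 4 of 5 tested higher in colon, and fibroblast markers to 749.7 and 538 CPM, with 3 of 6 tested higher and 1 lower. The part of these cells was not tested. With library totals, where the median over all tested genes moved to 0.44, 12 members were higher in colon and 1 lower, and Col13a1 (-0.79) was not called.

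The inguinal and mesenteric lymph nodes differed in 3 of 22 tested collagen genes. Col6a5 was the 1 member higher in the inguinal node (1.78% of all 13164 tested genes), with 11.5, 11.01, 12.2 and 2.64 CPM, against 2.71 ± 0.991 CPM in the mesenteric node (1.67 ± 0.45). The groups overlapped, and the call was lost without mesenteric replicate 3 (1.48, edgeR adjusted p = 0.0533). Lower in the inguinal node were 2 members (5.44% of all genes), Col14a1 (14.2 against 48.1 CPM, -1.87 ± 0.20) and Col12a1 (6.85 against 21.6 CPM, -1.73 ± 0.21), without overlap. Fibrillar and basement membrane members gave 0 calls in either direction, by edgeR and by DESeq2. At an unadjusted p below 0.05, edgeR had 3 fibrillar members lower and 1 higher in the inguinal node, and 3 basement membrane members lower and 0 higher. Adipocyte markers summed to between 4.66 and 2706 CPM in the inguinal and between 936 and 7085 CPM in the mesenteric node, and fibroblast markers were lower in the inguinal node for 4 of 7, and the part of adjoining fat in the values was not tested.

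Kidney and lung, which share the Col4a3, Col4a4 and Col4a5 network, differed in 23 of 26 tested collagen genes, 7 higher in kidney (24% of all 12186 tested genes) and 16 lower (21.9% of all genes). Col18a1 (129 against 28.3 CPM, 2.05 ± 0.12), Col27a1 (64.7 against 17.4 CPM, 1.73 ± 0.18), Col4a3 (1.65 ± 0.15), Col8a1 (17.98 against 5.55 CPM, 1.57 ± 0.35) and Col4a4 (1.33 ± 0.10) were higher in kidney, as were Col15a1 and Col14a1, the last not without lung replicate 4 (0.94). Col13a1 (1.68 against 73.1 CPM, -5.54 ± 0.25), Col23a1 (2.65 against 42.2 CPM, -4.11 ± 0.28), Col6a2 (24.5 against 161 CPM, -2.86 ± 0.13) and Col8a2 (0.988 against 5.98 CPM, -2.73 ± 0.50) were lower in kidney, with Col1a1 (-2.19 ± 0.14), Col3a1 (-2.13 ± 0.15), Col4a2 (-1.84 ± 0.09) and Col4a1 (-1.0002 ± 0.10). The Col4a1 call lay at the threshold, and was lost by limma (-0.98) and without any kidney replicate or lung replicate 3 or 4 (-0.91 to -0.997). Within type IV, kidney was thus higher in Col4a3 and Col4a4 and lower in Col4a2 and Col4a6, and Col4a5 did not pass the fold threshold (-0.84 ± 0.17). With library totals, where the median over all genes moved to -0.56, 3 members were higher in kidney, and Col8a1 (0.97) was not among them.

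Bone marrow was set against spleen, another blood-forming tissue of the mouse. Of 20 collagen genes tested 3 were higher in bone marrow (14.8% of all 12238 tested genes) and 14 lower (16.2% of all genes). Higher were Col5a3 (8.92 against 0.887 CPM, 3.38 ± 0.40), Col1a1 (208 against 64.2 CPM, 1.78 ± 0.19) and Col5a1 (20.2 against 10.0 CPM, 1.11 ± 0.19), all fibrillar, and no library of the groups overlapped. The Col5a1 call was lost with library totals (0.59) and without bone marrow replicate 2 or spleen replicate 3 (0.99 each). Col1a2 had 160 against 191 CPM and was not called (-0.17 ± 0.15). Lower were Col3a1 (2.66 against 66.5 CPM, -4.53 ± 0.17), Col12a1 (0.536 against 7.53 CPM, -3.66 ± 0.56), Col4a1 and Col4a2 (11.9 against 125 CPM and 7.22 against 87.7 CPM), Col8a2, with 2 reads in bone marrow against 7.79 CPM, and Col6a4, with no read against 6.88 CPM. Of the tested markers, 5 of 6 for fibroblasts, 5 of 5 for endothelium and 6 of 6 for smooth muscle were lower in bone marrow. The lists summed to 34.4 against 125, 79.3 against 239 and 13.5 against 283 CPM. The other tested fibroblast marker, Pi16, was higher in bone marrow (25.4 against 1.72 CPM, 3.96 ± 0.25) and made up most of the 34.4 CPM. The 2 tested bone markers were higher, and the part of these cells was not tested.

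**Figure D5:**
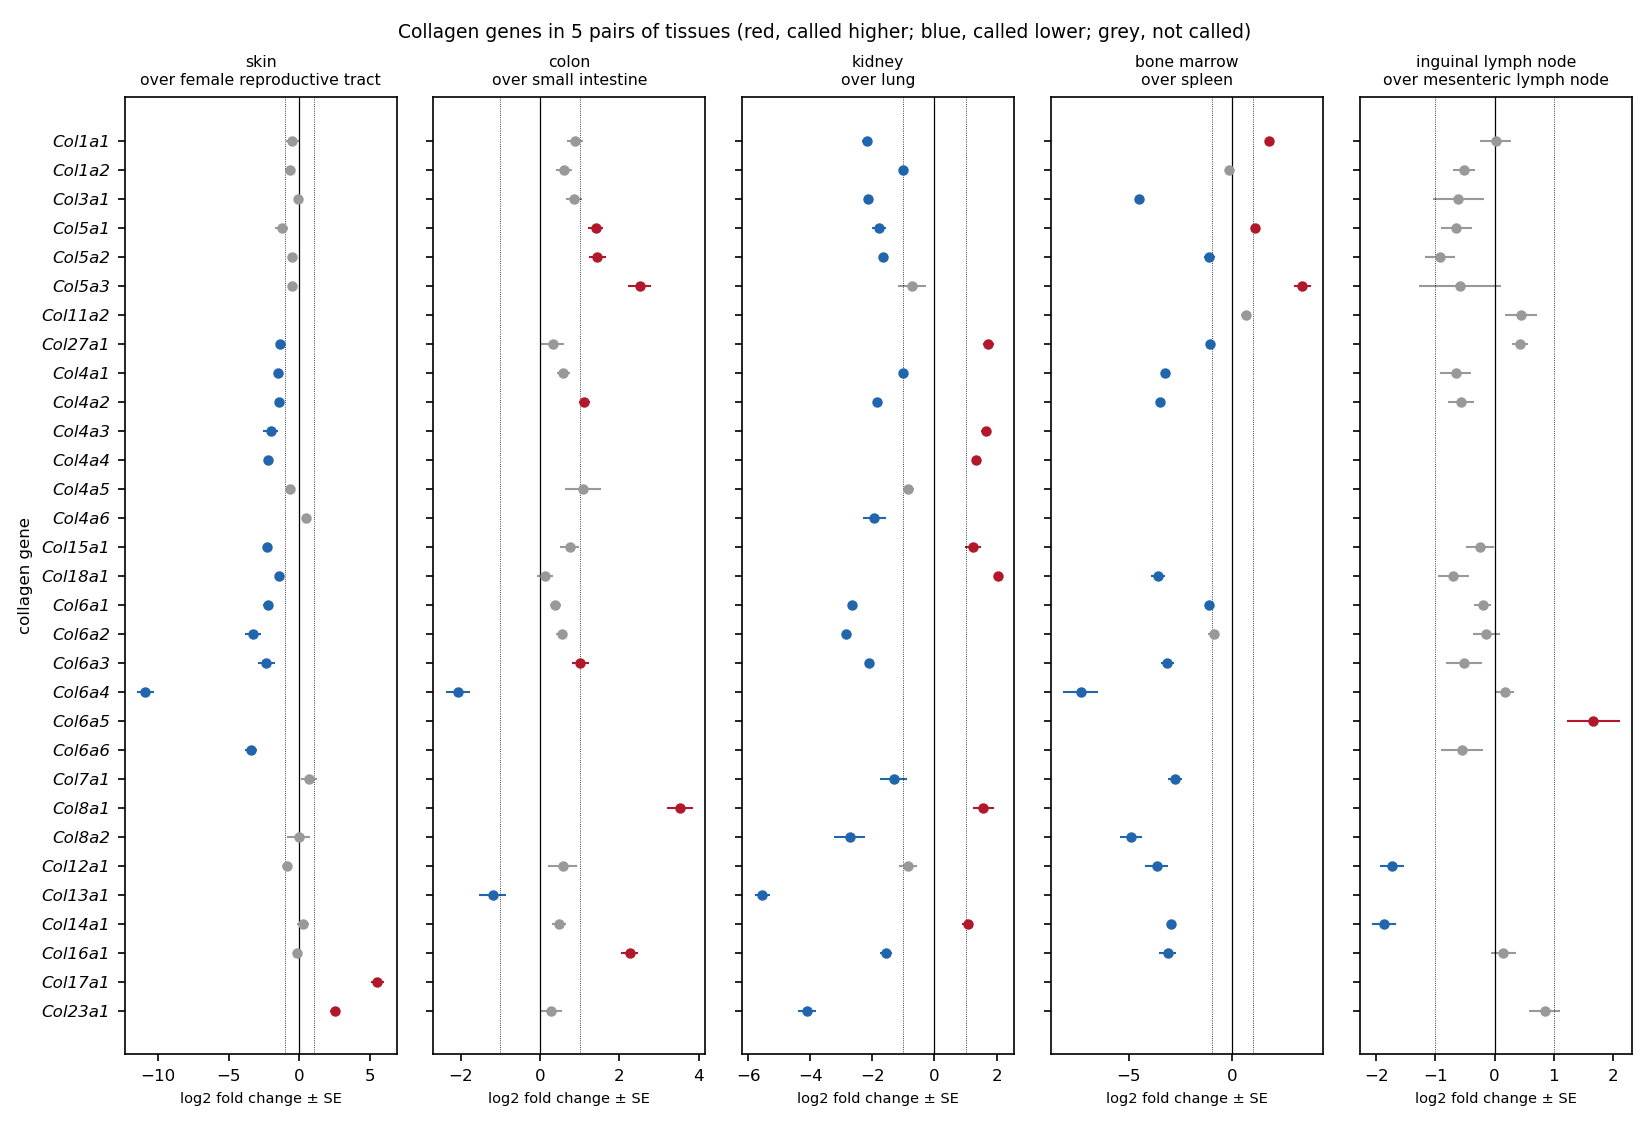
Log2 fold change with its SE for the collagen genes tested in 5 pairs of tissues, first tissue over second, with members called higher in red, called lower in blue and not called in grey. Kidney over lung and bone marrow over spleen have the most members called (23 of 26 and 17 of 20), and inguinal over mesenteric lymph node the fewest (3 of 22). Shares of all tested genes called, higher or lower, had the same order. Kidney over lung had 2927 of 12186 genes higher and 2666 lower, and bone marrow over spleen 1817 of 12238 higher and 1988 lower. Inguinal over mesenteric lymph node had 234 of 13164 genes higher and 716 lower.

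The balance of partner chains was compared as the share of Col1a1 in the reads of Col1a1 and Col1a2, of Col4a1 in those of Col4a1 and Col4a2, and of Col6a1 in those of Col6a1 and Col6a2. There were 15 exact two-sided permutation tests, and with 4 against 4 libraries the smallest possible p was 0.0286. The Col1a1 share was 56.1% in bone marrow against 25.2% in spleen, 26.6% in kidney against 45.1% in lung, 50.3% in colon against 44.7% in the small intestine, and 42.2% in the inguinal against 34.03% in the mesenteric lymph node. The Col4a1 share was 60.2% in kidney against 45.6% in lung, and 51.8% in colon against 60.3% in the small intestine. In these 6 tests the groups did not overlap and the exact permutation p was 0.0286, but after Benjamini-Hochberg adjustment over the 15 tests it was 0.0714, above the threshold. The other 9 had an adjusted p of 0.122 or more, among them all 5 of the Col6a1 share.

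Genes that make, process, bind and break down collagen were examined as 5 lists. For the female reproductive tract the values of these lists are given with all 4 libraries only, replicates 3 and 4 included. Of 17 genes of chain modification and folding, such as prolyl and lysyl hydroxylases and the chaperone Serpinh1 (HSP47), 10 were higher in the female reproductive tract, 9 in heart, 9 in lung with 3 lower, 7 in kidney and 4 in skin, while 10 were lower in blood and 8 in bone marrow. All 17 were tested. Among all tested genes 23.1% were higher in the female reproductive tract, 20.7% in heart, 16.8% in lung, 21.8% in kidney and 18.4% in skin, and 17.8% lower in blood, 16.1% in bone marrow and 12.3% in lung. The list's median log2 fold change was 1.15 in the female reproductive tract and 0.30 in skin, beside 0.08 and -0.04 over all tested genes. In the female reproductive tract Fkbp10 (log2 fold change 3.38 ± 0.20), Plod2 (3.06 ± 0.14) and Serpinh1 (421 CPM, 2.60 ± 0.13) were higher. In heart P4ha2 (3.09 ± 0.15) and Serpinh1 (2.46 ± 0.13), and in kidney P3h2, which hydroxylates type IV chains (4.73 ± 0.27), were higher. Liver had 5 higher and 5 lower, with P4hb (1677 CPM, 2.65 ± 0.08) and Mia3, which loads collagen into secretory vesicles (1.83 ± 0.07), among the higher.

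Of the 12 genes of propeptide cleavage and crosslinking 10 were tested. In the female reproductive tract 9 were higher, in skin 9, in lung 8 and in heart 6, and 8 were lower in blood and 7 in thymus, against 17.8% and 12.1% of all tested genes lower in blood and thymus and the shares higher given above. The list's median was 1.70 in the female reproductive tract, 2.23 in skin and 2.38 in lung, where all tested genes had -0.23. Pcolce2, an enhancer of propeptide removal, was higher in skin (142 CPM, 4.15 ± 0.14) and lung (232 CPM, 4.90 ± 0.14), and Adamts14, a propeptidase, in skin (3.58 ± 0.23). Pxdn, which crosslinks type IV collagen, was higher in lung (103 CPM, 3.23 ± 0.18), and Bmp1 in liver (134 CPM, 3.04 ± 0.12). Of the 10 receptor genes, all tested, 5 were higher in lung, 5 in the female reproductive tract with 1 lower and 5 in skin with 2 lower (5.31% and 6.38% of all genes lower in those tissues). The receptor list's median was 1.04 in lung, 1.12 in the female reproductive tract and 0.81 in skin, and Itga1, a subunit of a collagen-binding integrin, was higher in kidney (277 CPM, 2.28 ± 0.09). In blood 3 receptors were higher and 4 lower, and the platelet receptor gene Gp6 had 113 CPM there.

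Of the 9 genes of breakdown and its inhibitors, all tested, 6 were higher in skin (18.4% of all genes), 6 in lung (16.8%) with 1 lower and 5 in the female reproductive tract (23.1%), with Mmp2 at 145 CPM in skin (3.43 ± 0.13) and Mmp14 at 259 CPM in the female reproductive tract (3.76 ± 0.16). Bone marrow had 4 higher (17.6% of all genes) and 4 lower (16.1%). The neutrophil collagenase Mmp8 at 683 CPM and Mmp9 at 435 CPM (5.99 ± 0.12) were among the higher, and Mmp2, Timp1, Timp2 and Timp3 were lower. Kidney had the inhibitor Timp3 at 328 CPM (4.997 ± 0.11). All 6 fibril-associated proteoglycans were higher in heart (20.7% of all genes) and 4 in the female reproductive tract (23.1%), where Lum was at 154 CPM (4.47 ± 0.15). Heart's counts for the lists are given with TMM only. With library totals 1499 of all 18562 tested genes were higher in heart, against 3839 with TMM. In skin 3 were higher, with Lum (4.25 ± 0.14) and Dcn (1631 CPM, 3.80 ± 0.11), and in lung 3, with Prelp (354 CPM, 4.03 ± 0.10) and Bgn (656 CPM, 3.30 ± 0.10). In blood 6 of 6 were lower (17.8% of all genes). Dcn and Lum also stand in the list of fibroblast markers. Its 7 genes summed to 2290 CPM in the female reproductive tract, 2488 CPM in skin and 1505 CPM in heart. In blood they summed to 20.7 CPM, of which Pi16 made up 17.1 CPM. The part of fibroblast content in the collagen levels was not tested.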

How the data were processed

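RNA of 60 mouse tissue libraries (15 tissues, 4 each) was read from the 3′ end by oligo(dT)-primed, barcoded sequencing on a NextSeq500, per the labels' protocols, which describe no molecular identifiers. The authors deposited raw, whole-number counts per gene, made with FastQC, STAR, featureCounts and mm10 per the submitters' processing notes. Their versions and the strand setting were not given in the sources used here. The counts were not altered.

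Collagen genes were matched by symbol, and classes and gene lists came from textbook roles. The members (by a rule on symbols alone) and the lists were chosen with earlier results of these data known. Genes passed filterByExpr (minimum count 10, minimum total 15), were scaled by TMM and fitted with edgeR 4.0.16 (glmQLFit, glmQLFTest; R 4.3.3), with p-values adjusted by Benjamini-Hochberg over all genes tested. Members were called at an adjusted p below 0.05 where the log2 fold change was also above 1 in size. Each tissue was set against the mean of the other 14 in 1 fit of 60 libraries, and each of 5 pairs was fitted on its 8 libraries. The error of a fold change is the log2 fold change divided by the root of the F statistic. Where another tissue had no read of a gene, levels are given in place of folds. Chain shares needed at least 20 reads and used exact permutation tests (scipy 1.17.1).

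The text names, per tissue, up to 3 members called higher with at least 5 CPM by size of the change and the 2 with the highest level, per pair up to 4 in each direction, members at least 4 times the next tissue and their partner chains, and up to 3 genes of another list per statement. Others were named after their values were seen. On simulated counts for skin against the other tissues (16558 genes) the test recovered 97 of 100 genes changed 3-fold and 100 of 100 changed 6-fold. For skin against the female reproductive tract (12942 genes) it recovered 78 and 95 of 100. The changed genes were drawn from well-covered genes only. All genes had the same fixed spread, and all tissues the same mean profile apart from the changes. These rates therefore do not apply to members with few reads or with a wide spread between libraries. Alternatives were DESeq2 1.42.0, limma 3.58.1 (trend method, prior count 2), DESeq2 size factors, library totals, no filter, a replicate block and leaving out libraries. The p-values cover the spread between these libraries, and low totals limit what could be called in colon, lung and replicate 3 of the female reproductive tract. Promoter sequences are from RefSeq (GRCm38.p6), and coding sequences and gene positions from GENCODE on GRCm38. The podocyte marker list is not reported here.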

Additional observations from a re-analysis of the deposited data

Results flagged for a closer look

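Of 110 groups of 4 libraries examined, 7 had a library farther from the rest than Dixon's 95% critical value allows, and chance flags about 1 in 20 groups. In the female reproductive tract, replicate 3 had 2249 CPM of Col6a2, against 355 to 526 CPM in the other libraries, and 127 CPM of Col6a6, against 33.3 to 46.8 CPM. This library had the lowest total of the series (353605 counts). In the inguinal lymph node, replicate 4 had 2.64 CPM of Col6a5, against 11.01 to 12.2 CPM in the other libraries. In heart, replicate 1 had 6.57 CPM of Col6a6, against 9.77 to 10.1 CPM, and replicate 3 had 44.8 CPM of Col8a1, against 26.7 to 27.04 CPM. The summed fibrillar collagens reached 891 CPM in heart replicate 3, against 630 to 666 CPM in the other libraries. In bone marrow they reached 718 CPM in replicate 2, against 304 to 373 CPM. The cause of these values was not tested.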

How the results depend on the processing

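Of the 71 calls that the naming rule chose, 64 kept their direction and their side of the threshold under every setting run, and no call changed sign. The other 7 stayed in the same direction: Col5a1 in bone marrow against spleen (0.59 with library totals, 0.99 without bone marrow replicate 2 or spleen replicate 3), Col13a1 in colon against small intestine (-0.79 with library totals, -0.98 without colon replicate 3), Col6a5 between the lymph nodes (1.48 without mesenteric replicate 3), Col8a1 in kidney against lung (0.97) and Col14a1 in liver (0.96) with library totals, Col6a4 in spleen (0.95 by limma), and Col6a3 in skin against the female reproductive tract (-0.91 without replicates 3 and 4 of that tract). Over all member calls, leaving out a replicate gave 139 losses, where a call lost without each of several replicates counts once for each. In 38 of the losses the adjusted p was 1, where a tissue was left with no read of the gene.

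Values over all tested genes moved with library totals too, as given above for several tissues and pairs. Counts of members moved by over 1.5 times as follows, and the cause was not tested beyond what each setting changes. With library totals in place of TMM, 1 was lower in colon, 6 higher and 12 lower in heart, 16 higher and 2 lower in the inguinal and 19 higher in the mesenteric lymph node, 7 lower in kidney, 2 higher and 22 lower in liver, 5 lower in spleen, 12 higher and 1 lower in colon against small intestine, and 3 higher in kidney against lung. With no filter on low counts, 6 were higher in bone marrow, 4 lower in small intestine, 8 higher in thymus, 2 higher and 4 lower in the inguinal against the mesenteric node, and 6 higher in bone marrow against spleen. With DESeq2's Wald test, 9 were lower in heart, 10 in the inguinal node, 3 in skin and 4 in small intestine, and 3 were higher in thymus. Without female reproductive tract replicates 3 and 4, colon replicate 2, brain replicate 3 and liver replicate 4, chosen after seeing the data, 1 was lower in colon and 4 were higher in skin against the female reproductive tract. By limma, also chosen after seeing the data, 1 was higher in blood, 4 in the inguinal and 7 in the mesenteric node, 4 in spleen and 1 in thymus, and 4 were lower in colon, 2 in the female reproductive tract, 8 in heart, 17 in liver, 2 in lung, 2 in skin and 4 in small intestine.

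Leaving out 1 replicate at a time gave 1 to 2 higher in blood and 3 to 5 higher in thymus. The members lower were 0 to 1 in colon, 2 to 5 in heart, 3 to 6 in the inguinal and 3 to 4 in the mesenteric node, 2 to 4 in kidney, 0 to 1 in skin, 0 to 3 in small intestine and 5 to 8 in spleen. Colon against small intestine had 1 to 2 lower, and the inguinal against the mesenteric node 0 to 2 higher. With DESeq2 size factors none of the 40 counts moved by over 1.5 times. Of the 45 class sums 28 moved by more than the spread between replicates with library totals.

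Same-numbered libraries of the pairs correlated at between -0.0405 and 0.222 in their deviations from the group means. Kidney and lung libraries each correlated best with their own number. All but replicate 2 did for skin against the female reproductive tract, and all but replicate 4 for bone marrow against spleen. For colon against small intestine replicates 1 and 3 did, and for the lymph nodes replicates 1 (0.222) and 4 (0.209). Whether same-numbered libraries came from the same mouse cannot be told from these values, and the main fits treat libraries as unpaired. A replicate block moved none of the 40 counts by over 1.5 times and lost none of the 71 calls. Low depth limits what could be detected for the 6 untested members.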
